A study of Mus musculus with 6 samples.

Results

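The genes described here are 10 members of the hypoxia-inducible factor (HIF) pathway in fetal mouse heart: the subunit genes Hif1a, Epas1 and Arnt, the hydroxylase genes Egln1, Egln2 and Egln3, the ubiquitin ligase gene Vhl, and the target genes Vegfa, Bnip3 and Ddit4. They were taken by symbol from a table of RNA sequencing counts, with the reads of all transcripts of a symbol summed. All 10 were found, as 22 of 30031 transcripts and 10 of 19245 gene symbols. RNA came from both ventricles of C57BL/6 mice at embryonic day 17.5. KO stands here for the libraries labelled knockout, from embryos that carried Cre recombinase under the Nkx2-5 promoter together with floxed alleles of Esrra and Esrrg, the genes of the orphan nuclear receptors ERRα and ERRγ. WT stands for the libraries labelled wild type, from Cre-negative embryos that carried the floxed alleles too. There were 3 KO and 3 WT libraries, each from 2 pooled hearts. The Nkx2-5 promoter is active in cardiac progenitors, so that cells of other origin in the ventricle may keep both receptors.

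HIF is a pair of proteins, an oxygen-sensitive alpha subunit (encoded by Hif1a or Epas1) and the stable partner encoded by Arnt. In oxygenated cells the Egln proteins hydroxylate the alpha subunit, and the Vhl ligase then marks it for breakdown. When oxygen is low the alpha subunit persists, enters the nucleus and activates genes of glucose use, vessel growth and mitochondrial turnover through DNA sites with a short core, A or G followed by CGTG. The fetal heart develops at low oxygen tension, and Vegfa, a known target, is needed for its vessels. The sequencing measures RNA only, and the protein control of HIF is not seen in it. The comparison asks whether the RNA of HIF targets moved with that of Hif1a.

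As examples, the promoters of 5 members whose RNA differed between the groups are shown, which hold or lack the core through which HIF acts. Each is the 250 bases before a start that RefSeq annotates, read in the direction of the gene (GRCm38.p6), with matches to ACGTG or GCGTG on either strand in capitals. The Hif1a window lies before the start at 73907867 that NM_001313919 and NM_010431 share, inside the span of the transcript that starts upstream.
Hif1a (chr12:73907617-73907866, plus strand): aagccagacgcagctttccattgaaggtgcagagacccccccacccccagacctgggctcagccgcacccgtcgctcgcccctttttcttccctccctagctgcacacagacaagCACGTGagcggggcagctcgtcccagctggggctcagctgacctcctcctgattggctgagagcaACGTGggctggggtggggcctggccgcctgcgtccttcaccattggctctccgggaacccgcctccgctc
Egln3 (chr12:54203875-54204124, minus strand): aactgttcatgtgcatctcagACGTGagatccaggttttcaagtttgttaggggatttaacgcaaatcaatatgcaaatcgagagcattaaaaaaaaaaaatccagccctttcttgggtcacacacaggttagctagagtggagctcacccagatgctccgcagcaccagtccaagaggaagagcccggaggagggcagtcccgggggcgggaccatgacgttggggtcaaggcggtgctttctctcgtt
Bnip3 (chr7:138909507-138909756, minus strand): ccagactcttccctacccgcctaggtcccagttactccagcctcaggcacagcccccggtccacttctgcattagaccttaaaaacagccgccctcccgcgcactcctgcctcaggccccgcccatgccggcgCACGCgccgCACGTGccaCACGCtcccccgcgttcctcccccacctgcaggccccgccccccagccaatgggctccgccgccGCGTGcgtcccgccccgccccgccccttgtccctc
Ddit4 (chr10:59951771-59952020, minus strand): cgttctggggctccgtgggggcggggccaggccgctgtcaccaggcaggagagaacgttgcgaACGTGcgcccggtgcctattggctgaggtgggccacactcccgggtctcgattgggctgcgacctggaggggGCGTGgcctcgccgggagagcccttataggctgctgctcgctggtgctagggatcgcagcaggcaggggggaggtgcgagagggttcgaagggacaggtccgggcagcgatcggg
Vegfa (chr17:46032378-46032627, minus strand): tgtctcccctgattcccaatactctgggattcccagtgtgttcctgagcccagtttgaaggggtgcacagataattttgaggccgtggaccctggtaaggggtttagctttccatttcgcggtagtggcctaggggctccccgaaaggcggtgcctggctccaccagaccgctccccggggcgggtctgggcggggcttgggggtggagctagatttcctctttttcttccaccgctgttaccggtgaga

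Of the 10 members, 9 had a promoter entry, and Epas1 had none. At least 1 core was found for 8 of these 9 genes, against 38.6% of the 32851 mouse promoters of the same length (16.6% with ACGTG and 28.2% with GCGTG). Some members have 2 entries, which gives a gene more than 1 chance of a match. The members were also chosen as HIF pathway genes. Their windows held 48% to 86% G or C, and the mouse promoters were not matched to them in base makeup. Bnip3 had 5 matches and Hif1a had 3; in each gene 2 of them overlap as the palindrome CACGTG, 107 to 108 bases before the start in Bnip3 and 134 to 135 bases before it in Hif1a. Ddit4 had 2 matches, Egln3 had 1 and Arnt, whose window is not printed, had 1. Egln1 and Egln2, whose RNA was not called different, had matches too. There were 2 in the window of Egln1, and 4 and 1 in the 2 windows of Egln2. Matches were thus not limited to members whose RNA differed. The window at the distal start of Vegfa had none. A window before an internal start of Vegfa had 2, and Vegfa counts among the 8 genes only through it. That window lies inside the span of the transcripts from the distal start. Its 2 matches are thus in DNA transcribed from the distal start, and they are no promoter core of those transcripts. Vhl had none. The core site of the ERR proteins, AAGGTCA, was in none of the members' windows and in 4.08% of all promoters. A match is a description of letters and not of binding, and bases beyond these windows were not searched, so that a window without a core does not show that a gene lacks HIF sites.

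Libraries held 12807221 to 32663838 estimated counts over annotated genes, KO replicate 1 being the deepest. Levels compared between groups are CPM, counts scaled to library size with the trimmed mean of M-values, and differences are log2 fold changes of KO over WT from edgeR's quasi-likelihood test, called at a Benjamini-Hochberg adjusted p under 0.05 over 14290 genes. Esrra averaged 42.9 ± 1.63 CPM in KO and 75.8 ± 6.56 CPM in WT (SD, n = 3 each). Esrrg averaged 116 ± 5.29 CPM in KO and 81.7 ± 2.07 CPM in WT, which is against its label; the counts are summed over all exons and the labels do not name the floxed ones, so that this value does not check the deletion. The libraries also differed in the sex of the pooled embryos. Xist was at 0.949 CPM in KO replicate 1, 4 Y-linked genes summed to 0.0567 and 0.167 CPM in WT replicates 1 and 3, and the other 3 libraries, KO replicates 2 and 3 and WT replicate 2, held both. The fit was also run with these 3 single-sex libraries left out and with the Y-linked level as a covariate (the sex settings). The 4 Y-linked genes summed to 324, 146 and 167 CPM in KO replicates 1, 2 and 3 and to 112 CPM in WT replicate 2. Both settings thus lean on WT replicate 2, and sex cannot be told apart from the level of that library in them. Markers of cell types moved as well, and their counts stand beside 22.4% of all genes called higher and 22.0% called lower. Summed fibroblast markers ran from 4391 to 5210 CPM in KO and from 3129 to 3357 CPM in WT, with 5 of 5 genes higher, and summed atrial markers ran from 2183 to 2792 CPM in KO and from 499 to 507 CPM in WT, with 3 of 4 higher. Nppa made up most of the atrial sum (mean 1706 CPM in KO and 279 CPM in WT), and the atrial marker Sln was not called (log2 fold change -0.19). Summed cardiomyocyte markers ran from 81849 to 90944 CPM in KO and from 100992 to 102987 CPM in WT, with 4 of 5 lower. Ttn made up most of that sum (mean 80307 CPM in KO and 92705 CPM in WT). None of these markers was at 0 in every library, their part in the results was not tested, and in whole ventricles fewer cells of a type and less RNA per cell cannot be told apart.

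All 10 members passed the filter on low counts. Hif1a, Bnip3, Egln3 and Arnt were higher in KO, Vegfa, Ddit4 and Epas1 were lower, and Egln1, Egln2 and Vhl were not called. The members thus split in both directions, and the targets Bnip3 and Vegfa, each known to respond to HIF, changed with opposite sign. The count of 7 called among 10 stands beside 44.4% of all genes called in these libraries (22.4% higher and 22.0% lower). In each of the sex settings 5 members were called, 3 higher and 2 lower, beside 3521 genes in all with the covariate and 3645 without the single-sex libraries. The groups did not overlap for 7 of the 10 members, beside 53.7% of all genes. No member changed 2-fold, which 5.85% of all genes did. The median log2 fold change was 0.06 over the members, with a range of -0.65 to 0.83, and 0.01 over all genes.

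**Figure D1:**
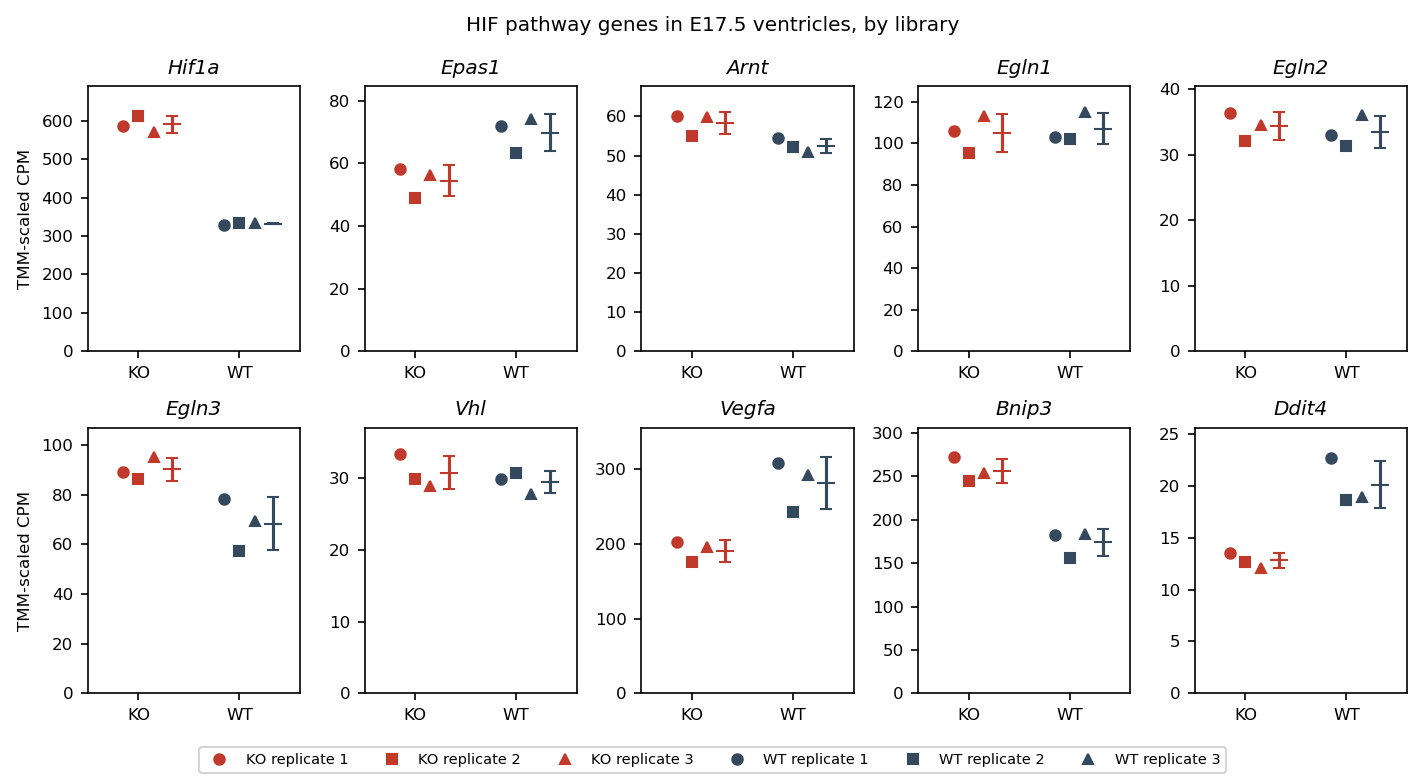
Level of each member in CPM (scaled by the trimmed mean of M-values; vertical axes) in each library, with the libraries labelled KO left of WT; points are libraries, and the bars beside them are the group mean ± SD (n = 3 each). Hif1a lies between 570.4 and 613 CPM in KO and between 329.7 and 333 CPM in WT, and Vegfa lies between 175 and 203 CPM in KO and between 242 and 308 CPM in WT.

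Hif1a, the oxygen-regulated alpha subunit found in most cells, was the member with the greatest difference. It stood at 587, 613 and 570.4 CPM in KO replicates 1, 2 and 3, against 329.7, 333 and 333 CPM in WT replicates 1, 2 and 3. Every KO library lay far above every WT library, and the WT libraries were almost level with each other. Hif1a was 1.78-fold higher in KO (log2 fold change 0.83, SE 0.042, 95% interval 0.74 to 0.92, adjusted p = 6.89e-09). Its position is chr12:73901324-73947554 on the plus strand of mm10. By GENCODE M21, 330 exonic bases of Hif1a (5.6%) overlap the antisense gene Gm15283 and 148 bases (2.51%) overlap Gm49321 on the same strand, neither of which has counts of its own here.

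All 3 annotated Hif1a transcripts were higher in KO. Beside them, 22.7% of 21591 transcripts tested were called, 11.0% as higher and 11.8% as lower. The log2 fold changes were 0.74 (adjusted p = 0.000614) for NM_001313919 and 0.77 (adjusted p = 0.000776) for NM_010431, which share a start, and 0.96 (SE 0.146, adjusted p = 0.00351) for NM_001313920, which starts upstream at position 73901324. The upstream transcript took 28.1% to 40.6% of Hif1a counts in KO libraries and 28.6% to 34.1% in WT libraries. These shares overlapped, so that no shift between starts was seen beyond the spread. Without the single-sex libraries the log2 fold change of the upstream transcript was as large (1.00), but its adjusted p of 0.0949, from 2 KO libraries and 1 WT library, missed the threshold.

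Epas1 (mm10 chr17:86753864-86833410, plus strand) encodes another alpha subunit, known for its role in endothelial cells. It stood at 58.3, 48.8 and 56.3 CPM in KO libraries, against 71.9, 63.2 and 74.2 CPM in WT libraries. The highest KO library was below the lowest WT library. The log2 fold change was -0.35 (SE 0.0729, 95% interval -0.51 to -0.19, adjusted p = 0.00161), opposite in sign to that of Hif1a. The call was lost with the Y-linked covariate (-0.21, adjusted p = 0.186) and without the single-sex libraries (-0.26, adjusted p = 0.0658). Endothelial markers summed to 899.8 to 928 CPM in KO and 994 to 1041 CPM in WT. Of these 7 genes, 2 were higher and 4 lower, beside 22.4% higher and 22.0% lower of all genes. The part of these markers in the Epas1 value was not tested.

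Hif1a and Epas1 were set against each other per length; Hif3a was not part of this sum. On deposited RPKM, a read number scaled to length and depth, Hif1a made up 92.1%, 93.5% and 92.1% of the Hif1a and Epas1 sum in KO libraries, against 84.1%, 85.8% and 83.8% in WT libraries. The mean share was 92.6% ± 0.843 in KO and 84.5% ± 1.1 in WT (SD, n = 3 each), a difference of 8.02 percentage points, and the groups did not overlap.

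Arnt (chr3:95434390-95497239, plus strand), the shared partner of both alpha subunits, stood at 60, 55.1 and 59.8 CPM in KO libraries, against 54.4, 52.2 and 51 CPM in WT libraries. The KO libraries were above the WT libraries by a narrow margin. The log2 fold change was 0.15 (SE 0.053, 95% interval 0.04 to 0.27, adjusted p = 0.0315). The log2 fold change stayed between 0.13 and 0.19 in 14 alternatives, with adjusted p from 0.0157 to 0.263, but passed the threshold in 6. The adjusted p missed it with DESeq2 (0.0851), with the transcript of highest count (0.186), with the Y-linked covariate (0.214) and without the single-sex libraries (0.263). It also missed it without KO replicate 1 (0.0841), KO replicate 3 (0.105), WT replicate 2 (0.0742) or WT replicate 3 (0.119). Neither of its 2 transcripts was called on its own (adjusted p = 0.27 and 0.696).

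**Figure D2:**
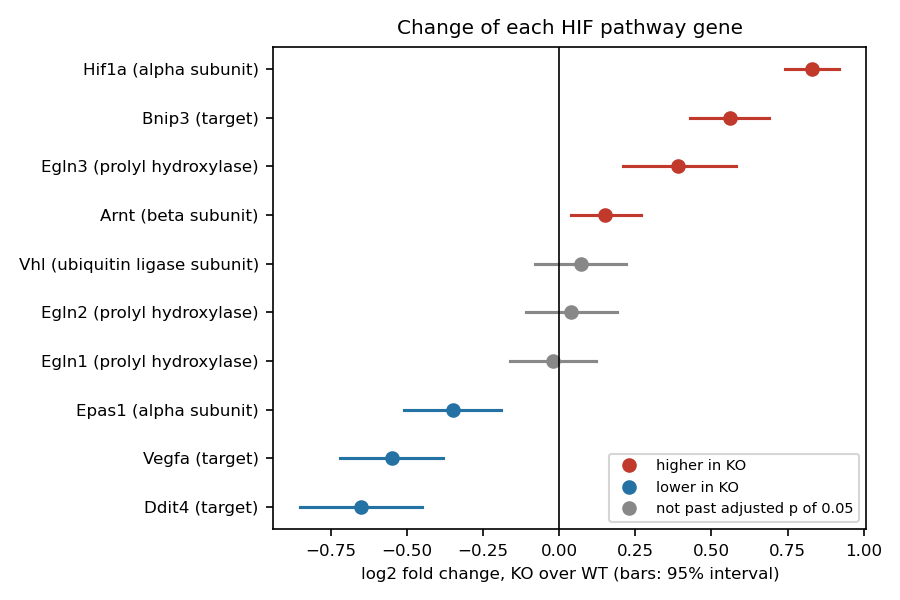
log2 fold change of KO over WT (libraries labelled KO and WT, 3 each) of each of the 10 members, with 95% intervals from edgeR. Hif1a (0.83), Bnip3 (0.56) and Egln3 (0.39) lie above 0 and Ddit4 (-0.65), Vegfa (-0.55) and Epas1 (-0.35) lie below it, while the intervals of Egln1, Egln2 and Vhl span 0.

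Of the 3 prolyl hydroxylases that mark the alpha subunit, 1 was called. Egln3 (chr12:54178981-54203874, minus strand), a hydroxylase that is itself a known HIF target, stood at 89.3, 86.3 and 95.3 CPM in KO libraries, against 78.5, 57.3 and 69.4 CPM in WT libraries. WT libraries were spread more widely than KO libraries, and the groups did not overlap. Egln3 was 1.31-fold higher in KO (log2 fold change 0.39, SE 0.0854, 95% interval 0.21 to 0.58, adjusted p = 0.00223). WT replicate 2 was the lowest library; the log2 fold change was 0.29 without it, 0.70 with the Y-linked covariate and 0.67 without the single-sex libraries, and the call held in each.

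Egln1 (chr8:124908587-124949254, minus strand), the main oxygen sensor of the family, stood at 106, 95.4 and 113 CPM in KO libraries, against 103, 102 and 115 CPM in WT libraries. The groups overlapped, and the log2 fold change of -0.02 had a 95% interval of -0.16 to 0.12 (adjusted p = 0.799). Egln2 (chr7:27158658-27166802, minus strand), a paralogue, stood at 36.4, 32.1 and 34.6 CPM in KO libraries, against 33.1, 31.4 and 36.1 CPM in WT libraries. These groups overlapped too, and the log2 fold change was 0.04 with a 95% interval of -0.11 to 0.19 (adjusted p = 0.674). Vhl (chr6:113624021-113631633, plus strand), the substrate-binding part of the ubiquitin ligase, stood at 33.3, 29.9 and 28.8 CPM in KO libraries, against 29.8, 30.7 and 27.8 CPM in WT libraries. Its log2 fold change was 0.07, with a 95% interval of -0.08 to 0.22 (adjusted p = 0.448). The intervals leave room for small differences in either direction for these 3 genes.

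The makeup of the hydroxylase family was set out on the RPKM scale. Egln3 made up 41.3%, 43.3% and 42.3% of the Egln sum in KO libraries, against 39.5%, 32.8% and 34.2% in WT libraries. Egln1 made up 37.3%, 36.3% and 38.2% in KO libraries, against 39.4%, 44.4% and 43.2% in WT libraries. Neither pair of groups overlapped. The mean difference was 6.78 points for Egln3 and -5.04 points for Egln1. Shares within a library depend on each other, so that these are not separate observations, and Egln1 itself was not called. Egln2 averaged 20.4% in KO and 22.2% in WT, with overlapping libraries.

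Among the targets, Bnip3 (chr7:138890836-138909506, minus strand), a mitochondrial outer membrane protein that acts in mitophagy and cell death, changed in the direction of Hif1a. It stood at 272, 244 and 254 CPM in KO libraries, against 182, 156 and 184 CPM in WT libraries. All KO libraries were above all WT libraries. Bnip3 was 1.47-fold higher in KO (log2 fold change 0.56, SE 0.0603, 95% interval 0.43 to 0.69, adjusted p = 8.47e-06), and 6.79% of all genes were called with a log2 fold change at least as high. By GENCODE M21, 504 exonic bases of Bnip3 (22.3%) overlap the antisense gene Gm45507; the sources used here do not give the strand setting of counting, so that their reads cannot be told apart.

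Vegfa, the growth factor that guides vessel growth in the heart, changed against the direction of Hif1a. It stood at 203, 175 and 196 CPM in KO libraries, against 308, 242 and 292 CPM in WT libraries. Every KO library was below every WT library, and WT replicate 2 was the WT library nearest to KO. Vegfa was 1.47-fold lower in KO (log2 fold change -0.55, SE 0.0778, 95% interval -0.72 to -0.38, adjusted p = 8.27e-05). The change was smaller in the sex settings, both of which lean on WT replicate 2. The log2 fold change was -0.32 (adjusted p = 0.0176) with the Y-linked covariate and -0.38 without the single-sex libraries.

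Vegfa has 10 annotated transcripts at chr17:46016993-46032377 on the minus strand of mm10, and all had a log2 fold change below 0. Of these, 5 were called lower and 5 were not called. Among the called, NM_001287057 and NM_001317041 had identical counts in every library, and those of NM_009505 were nearly the same. These calls are thus not separate observations. The transcripts fall into 3 length classes within each of their starts. The longest class took 44.7%, 46.7% and 45.3% of Vegfa counts in KO libraries, against 40.6%, 38.9% and 38.1% in WT libraries. The middle class, which is 72 to 73 bases shorter, took 45.4%, 39.6% and 47.7% in KO libraries, against 49.1%, 52.8% and 53.7% in WT libraries. Neither class overlapped between groups, though shares within a library depend on each other. The shortest class, 204 to 205 bases below the longest, took 7% to 13.7% in KO and 8.2% to 10.4% in WT, which overlap. Since the classes share most of their bases, the deposited counts share reads out between them by estimation, and the difference in shares was not tested. None of the 5 calls held in the sex settings, though their log2 fold changes stayed below 0. For NM_001110267 the value was -0.93 in the fit of all libraries, -0.77 (adjusted p = 0.0656) with the Y-linked covariate and -0.84 (adjusted p = 0.106) without the single-sex libraries. The other 4 ran from -0.72 to -0.42 in the fit of all libraries, from -0.53 to -0.18 with the covariate and from -0.59 to -0.24 without those libraries.

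**Figure D3:**
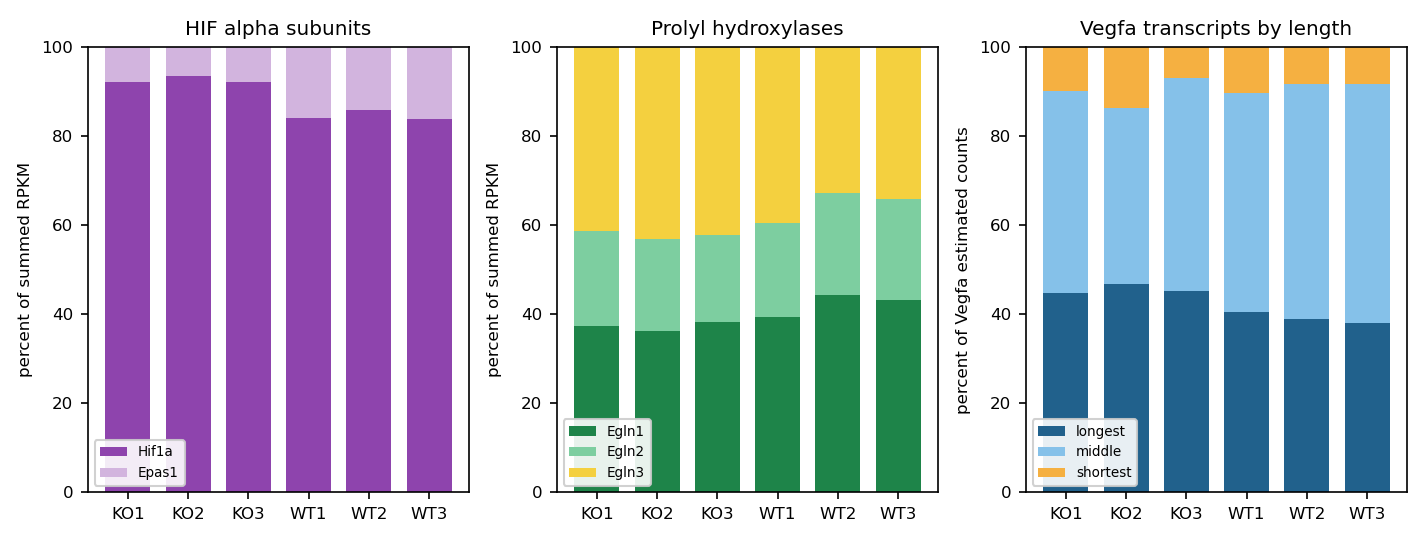
Shares in percent by library, with libraries labelled KO left of WT, as stacked bars: Hif1a and Epas1 within their summed RPKM, the Egln genes within theirs, and the 3 length classes within the estimated counts of Vegfa. Hif1a takes 92.1% to 93.5% in KO and 83.8% to 85.8% in WT, Egln3 takes 41.3% to 43.3% in KO and 32.8% to 39.5% in WT, and the longest Vegfa class takes 44.7% to 46.7% in KO and 38.1% to 40.6% in WT.

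Ddit4 (chr10:59949675-59951770, minus strand) encodes a stress-induced inhibitor of the growth kinase mTORC1 and was also lower in KO. It stood at 13.5, 12.7 and 12.1 CPM in KO libraries, against 22.7, 18.6 and 18.9 CPM in WT libraries. The groups did not overlap. Ddit4 was 1.57-fold lower in KO (log2 fold change -0.65, SE 0.0911, 95% interval -0.85 to -0.45, adjusted p = 8.26e-05), the strongest fall among the 10 members.

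Per length, the order of the members differed between the groups. In KO libraries Bnip3 (58.2 ± 5.91 RPKM) and Hif1a (50.5 ± 2.34 RPKM) led, with Vegfa next at 23.7 ± 2.79 RPKM (SD, n = 3). In WT libraries Bnip3 (35.5 ± 2.88 RPKM) and Vegfa (31.3 ± 3.34 RPKM) had overlapping ranges at the top, with Hif1a next at 25.5 ± 0.773 RPKM. Within each WT library Bnip3 was above Vegfa (36.1 and 33.3, 32.4 and 27.5, 38.1 and 33.1 RPKM). Mean Egln3 stood just above Egln1 in KO (13.4 and 11.9 RPKM) and just below it in WT (9.13 and 10.9 RPKM). The ranges of these neighbours overlapped in both groups. Within each KO library Egln3 was above Egln1 (13.9 and 12.6, 12.3 and 10.3, 14.1 and 12.7 RPKM). In WT libraries the values were 10.2 and 10.2, 7.79 and 10.5, and 9.41 and 11.9 RPKM. Egln2 followed at 6.5 RPKM in KO and 5.7 RPKM in WT. The lowest levels in KO were those of Arnt (5.34 RPKM), Vhl (4.48 RPKM), Epas1 (4.06 RPKM) and Ddit4 (3.02 RPKM), of which Ddit4 lay apart from Epas1 above it. In WT, Epas1 (4.67 RPKM), Arnt (4.32 RPKM), Ddit4 (4.26 RPKM) and Vhl (3.86 RPKM) overlapped each with the next.

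Within the KO group, the library with the highest Hif1a was not the one with the highest Bnip3. On the log2 scale relative to the WT mean, KO replicate 2 had the highest Hif1a (0.89) and the lowest Bnip3 (0.49) and Vegfa (-0.68) of its group. KO replicate 1 had 0.82 for Hif1a, 0.65 for Bnip3 and -0.46 for Vegfa. The libraries fall into separate groups of 3 by Hif1a, so that no correlation between Hif1a and its targets was computed.

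The genes whose pattern over the 6 libraries was most like that of Hif1a, out of 9788 compared, were Etv1, Ptgfrn and Sema5a. Their root mean square differences in centred log2 CPM were 0.0244, 0.0447 and 0.0455. Etv1 encodes an ETS transcription factor known in fast-conducting myocardium; it averaged 86.8 ± 1.59 CPM in KO and 49.4 ± 1.19 CPM in WT. The genes most like Vegfa were Caskin2, Vars2, which encodes the mitochondrial valyl-tRNA synthetase, and Mgat4b, a glycosyltransferase of the Golgi, with differences of 0.042, 0.0476 and 0.0502. No member was among these genes, since the members were left out of the search.

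A wider list of 65 other HIF pathway genes was counted in the same fit. Of these, 64 were tested and Epo was not analysed here. KO was higher for 25 and lower for 18, and 21 were not called; the median was 0.05 on the log2 scale. The shares of all genes, 22.4% higher and 22.0% lower, stand beside these counts. With the Y-linked covariate 20 were higher and 6 lower. Calls over all genes fell too, from 3198 higher and 3150 lower to 1703 higher and 1818 lower with the covariate. At 2-fold, 4 were higher (Ndufa4l2, Plod2, Stc2 and, named after its values were seen, Car9) and Tfrc was lower. Of all genes, 5.85% were called with a change of at least 2-fold in either direction.

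Among 12 regulators, 4 were higher, 2 were lower and 6 were not called. Hif1an, the asparagine hydroxylase that blocks the coactivator contact of the alpha subunit, averaged 76.8 ± 0.929 CPM in KO and 61.7 ± 5.91 CPM in WT (log2 fold change 0.32, adjusted p = 0.000872). Os9, a lectin of the endoplasmic reticulum, had a log2 fold change of 0.31, and Hif3a, a further alpha subunit, had 0.16. Elob, a partner of Vhl in its ligase, had -0.25, and Siah2, a ligase known to act on the prolyl hydroxylases, had -0.24. In the sex settings these 5 calls were lost, with log2 fold changes of 0.15 and 0.16 for Hif1an, 0.20 and 0.19 for Os9, 0.07 and 0.06 for Hif3a, -0.18 and -0.17 for Elob, and -0.15 and -0.16 for Siah2 (covariate, then libraries left out).

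Among 20 genes of glucose and energy use, 7 were higher, 6 were lower and 7 were not called. The genes named here are those with the lowest adjusted p in each direction. Slc16a3, the lactate exporter MCT4, averaged 177 ± 3.03 CPM in KO and 104 ± 6.81 CPM in WT (log2 fold change 0.77, adjusted p = 4.34e-08), and the glucose transporter gene Slc2a3 had a log2 fold change of 0.84 (adjusted p = 5.8e-06). Ak4, a mitochondrial adenylate kinase, was also higher (0.53). Gpi1, phosphoglucose isomerase, averaged 443 ± 10.6 CPM in KO and 637 ± 39.1 CPM in WT (log2 fold change -0.52, adjusted p = 2.58e-06). Pgam1, phosphoglycerate mutase, had a log2 fold change of -0.38, and Pdk1, a kinase that inhibits pyruvate dehydrogenase, had -0.28.

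Of 10 secreted and vessel genes tested, 3 were higher, 3 were lower and 4 were not called. Stc2, a stanniocalcin hormone, averaged 15.5 ± 1.12 CPM in KO and 7.5 ± 1.37 CPM in WT (log2 fold change 1.05, adjusted p = 1.13e-05). Edn1, the vasoconstrictor endothelin, had a log2 fold change of 0.96. Pdgfb, which recruits pericytes to vessels, averaged 18.9 ± 0.303 CPM in KO and 30 ± 1.8 CPM in WT (log2 fold change -0.67, adjusted p = 3.33e-06). Igfbp3, a binding protein of insulin-like growth factors, had -0.80, and Flt1, a receptor of Vegfa, had -0.17 with overlapping groups. Markers of smooth muscle and pericytes summed to 375 to 419.9 CPM in KO and 477 to 494 CPM in WT, with 0 of 4 higher and 2 lower. Most of this fall was that of Rgs5 (mean 76.7 CPM in KO and 149.7 CPM in WT). Pdgfrb had a log2 fold change of -0.25, and Cspg4 (0.06) and Myh11 (0.02) were not called. The part of these markers in the Pdgfb value was not tested.

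The class of cell fate, mitochondrial, iron and matrix genes had 11 of 22 higher, 7 lower and 4 not called, with a median log2 fold change of 0.23. Plod2, a lysyl hydroxylase that prepares collagen for crosslinks, averaged 222 ± 6.76 CPM in KO and 92.2 ± 4.67 CPM in WT (log2 fold change 1.26, adjusted p = 2.96e-10). Ndufa4l2, a mitochondrial protein known to be induced by HIF, averaged 48.3 ± 8.21 CPM in KO and 15.9 ± 1.44 CPM in WT (1.61, adjusted p = 1.47e-07). P4ha1, a collagen prolyl hydroxylase, had a log2 fold change of 0.60. Tfrc, the transferrin receptor that brings iron into cells, averaged 115 ± 5.8 CPM in KO and 244 ± 24.5 CPM in WT (-1.09, adjusted p = 3.35e-08). Vldlr, a lipoprotein receptor, had -0.25 and Mxi1, an antagonist of Myc, had -0.24. The collagen enzymes Plod2 and P4ha1 moved in the direction of the fibroblast markers given above, whose part in these values was not tested.

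**Figure D4:**
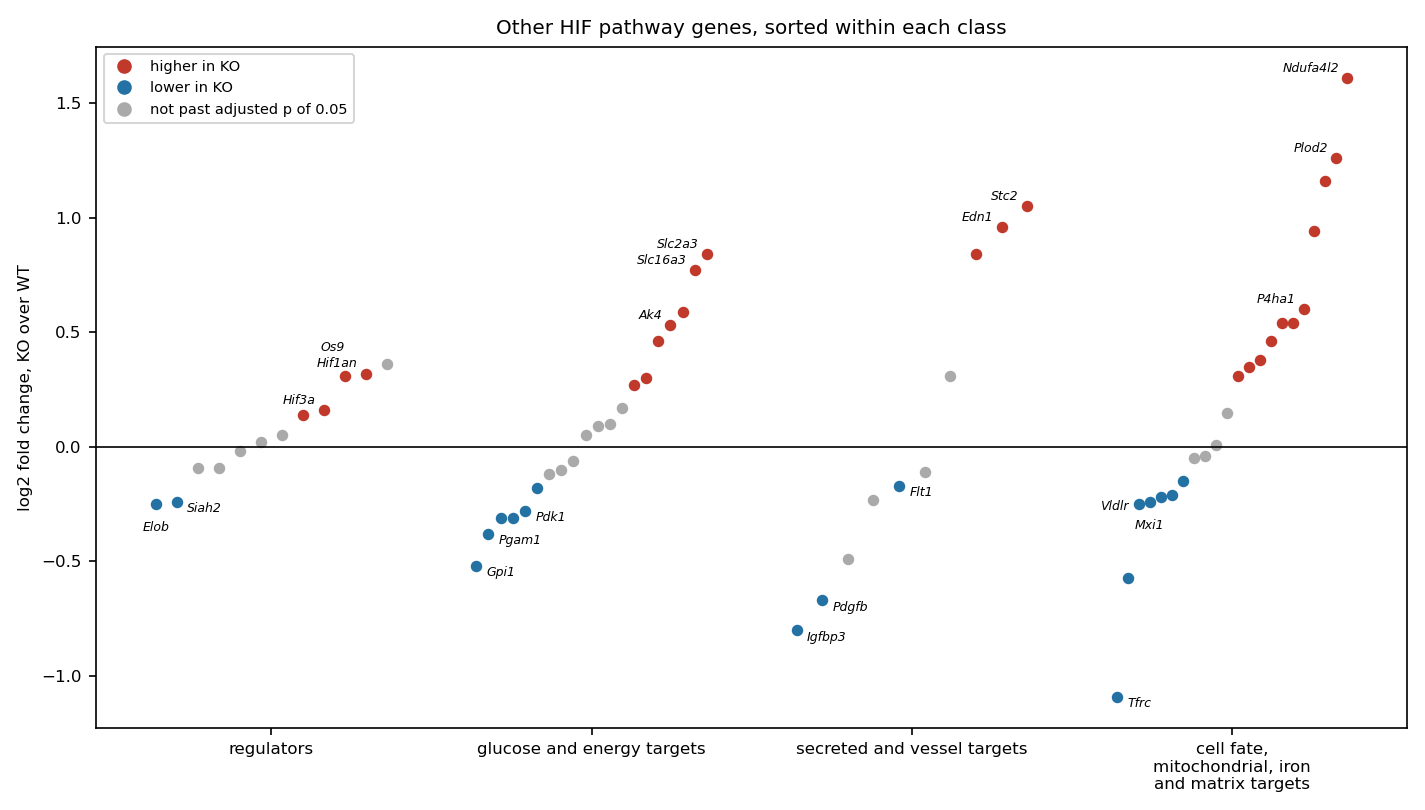
log2 fold change of KO over WT (libraries labelled KO and WT, 3 each) for the other HIF pathway genes tested, sorted within 4 classes; red points are called higher, blue points lower and grey points not called. Each class holds genes on both sides of 0, from Tfrc at -1.09 to Ndufa4l2 at 1.61.

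Of the named genes of the wider list, 9 lost their call in both sex settings (adjusted p from 0.0534 to 0.67): Hif1an, Os9, Hif3a, Elob, Siah2, Pdk1, Flt1, Vldlr and Mxi1. With the covariate and without the single-sex libraries the log2 fold changes were -0.17 and -0.17 for Pdk1, -0.06 and -0.11 for Flt1, -0.12 and -0.11 for Vldlr, and -0.16 and -0.18 for Mxi1. Hif3a, Siah2 and Flt1 also lost it in other alternatives.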

How the data were processed

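Total RNA of mouse ventricles was sequenced as 3 KO and 3 WT libraries, grouped by the sample labels, with 2 hearts pooled per library. The submitters' processing notes name the mm10 genome, DESeq, Partek 6.6 and TopHat2 2.0; their roles and the strand setting of counting were not stated there. The labels name both an mRNA and a stranded total RNA kit.

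For each transcript the authors deposited estimated counts, which need not be whole. They were summed by symbol and rounded; 94.5% of sums lay within 0.01 of whole. The 58 transcripts with symbols changed to dates were restored by accession. The authors also deposited RPKM values. RPKM recomputed from the summed counts came to 2.46 to 2.66 times the deposited values in KO and 2.69 to 2.81 times in WT, so that RPKM is used only within a library or group. The deposited percent of reads fully within exons was 37.6% to 40.6% in KO and 35.5% to 37.1% in WT, and within introns 39.3% to 42.1% in KO and 36.6% to 38.8% in WT. Reads between genes made up 16.4% to 22.4% in KO and 23.3% to 27.1% in WT. These differences run along with the groups, and their part in the results was not tested.

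Genes were tested two-sided with edgeR 4.0.16 in R 4.3.3 (quasi-likelihood, trimmed mean of M-values, and filterByExpr set to at least 10 counts and 15 in total), adjusted over 14290 genes, and transcripts likewise. Alternatives were DESeq2 size factors, DESeq2 1.42.0, no filter, a replicate block, cyclic loess with limma 3.58.1, leaving out each library, the top transcript in place of the sum, a Y-linked covariate, and leaving out the 3 single-sex libraries. Common biological variation was 5.58%. P-values measure the spread between pools of hearts. Gene positions were taken from the authors' table (mm10).

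The members, lists, tests and alternatives were chosen with earlier results of these data known. Named genes were the 10 members, Esrra, Esrrg, up to 3 changed genes per direction and class of the wider list by adjusted p, and the 3 genes most like Hif1a and most like Vegfa with a mean of at least 10 CPM; 1 gene that the rule takes is not reported here.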

Additional observations from a re-analysis of the deposited data

How the results depend on the processing

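Among the called members, their called transcripts and the named genes, no log2 fold change changed sign in the alternatives run; other pathway genes and markers were compared by counts only. Hif1a (0.77 to 0.85), Bnip3 (0.49 to 0.72), Egln3 (0.29 to 0.70), Vegfa (-0.65 to -0.32) and Ddit4 (-0.70 to -0.52) were called in all 14 alternatives, Epas1 in 12 and Arnt in 6. Leaving out 1 library gave 6 to 7 called members, 37 to 45 other pathway genes and 5319 to 6112 of all genes. Member transcripts were counted for Hif1a, Vegfa and Arnt only, the members with more than 1, and 7 to 10 of them were called.

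The sex settings changed counts most, with 5 called members in each. With the Y-linked covariate, 3521 genes were called (1703 higher, 1818 lower), with 26 other pathway genes (6 lower) and 3 member transcripts. Member transcripts are again those of Hif1a, Vegfa and Arnt only, so that the transcripts of Epas1 and Ddit4 are not in these counts. Without the single-sex libraries, 3645 genes were called (1787 higher, 1858 lower), with 26 other pathway genes (7 lower) and 2 member transcripts; 0 member transcripts were lower in either. Leaving them out compares 2 KO libraries with 1 WT library, which is assumed to vary like the others.

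Deviations of same-numbered KO and WT libraries were weakly correlated (-0.00552, -0.0152 and 0.104). With 3 libraries per group this cannot settle whether they were paired, and the labels used here name no pairing. With the replicate block, 6410 of all genes, 45 other pathway genes and 7 members were called.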

Other observations

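Other marker lists gave these values, beside 22.4% of all genes called higher and 22.0% called lower. Macrophage markers summed to 50.4 to 54.8 CPM in KO and 37.1 to 45 CPM in WT, with 2 of 5 higher and 0 lower. Epicardial markers summed to 66.8 to 74.2 CPM in KO and 50.5 to 65.6 CPM in WT, with 1 of 3 higher and 0 lower. Erythroid markers summed to 568 to 1207 CPM in KO and 533 to 777 CPM in WT, with overlapping groups. By edgeR none of the 7 was called.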
